A study of Mus musculus with 18 samples.

Results

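Immediate-early genes were followed through 18 mouse testis libraries, with attention to the difference between isolated spermatocytes and whole testis. The 10 members (Fos, Fosb, Jun, Junb, Egr1, Egr2, Atf3, Nr4a1, Ier2 and Dusp1) were taken by gene symbol, from 46418 symbols present in all 18 tables, and all 10 were present in each table. The rule used symbols only.

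The series compared mice that lack Zfp541 (Zfp541-/-, KO) with heterozygous mice (Zfp541+/-, Het), all male and of strain C57BL/6J. The 6 groups were P18 spermatocytes KO, P18 spermatocytes Het, P18 testis KO, P18 testis Het, P14 testis KO and P14 testis Het (P14 and P18, postnatal days 14 and 18), with 3 libraries each. Het mice carry 1 mutant allele themselves, and a wild-type group was not analysed here. The labels call the testis samples testicular cells and the replicates biological, without saying whether each was a separate animal or a pool, so p-values measure the spread between these libraries. How the spermatocytes were isolated is not given in the sources used here. Poly(A) RNA was sequenced, and the strand setting is not given, so reads of a gene and of an antisense partner cannot be told apart.

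Immediate-early genes are transcribed within minutes of a stimulus by factors that are already in the cell, such as serum response factor and CREB, and most of their transcripts and proteins are short-lived. Many encode transcription factors: Fos, Fosb, Jun, Junb and Atf3 are basic leucine zipper proteins of the AP-1 and ATF families, Egr1 and Egr2 are zinc finger factors, and Nr4a1 is an orphan nuclear receptor. Others, such as the phosphatase Dusp1, damp the kinases that switched them on. In other tissues, enzymatic dissociation into single cells is known to induce them.

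The promoters of the 4 members with the largest change between spermatocytes and testis in Het, among those with an entry, are shown because these genes carry the main result and moved together across libraries. They are the RefSeq sequences of 300 bases, from 250 before to 50 after the start site (build GRCm38.p6): Fosb at chr7:19309996-19310295 on the minus strand, Fos at chr12:85473640-85473939 on the plus strand, Atf3 at chr1:191183284-191183583 on the minus strand and Nr4a1 at chr15:101266596-101266895 on the plus strand. Capitals mark TGACGT, the core site known for CREB and ATF factors, and GCGNGGGCG, the motif known for EGR factors, on either strand.
Fosb: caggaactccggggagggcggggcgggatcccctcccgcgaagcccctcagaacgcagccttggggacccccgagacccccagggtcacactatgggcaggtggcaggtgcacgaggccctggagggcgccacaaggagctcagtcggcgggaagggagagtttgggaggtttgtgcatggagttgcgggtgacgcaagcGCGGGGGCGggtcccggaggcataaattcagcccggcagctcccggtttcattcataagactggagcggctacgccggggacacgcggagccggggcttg
Fos: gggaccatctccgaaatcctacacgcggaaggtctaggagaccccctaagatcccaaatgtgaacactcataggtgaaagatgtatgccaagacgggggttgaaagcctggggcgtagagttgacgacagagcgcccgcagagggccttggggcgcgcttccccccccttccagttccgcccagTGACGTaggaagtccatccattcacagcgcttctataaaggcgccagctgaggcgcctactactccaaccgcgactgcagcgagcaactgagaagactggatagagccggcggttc
Atf3: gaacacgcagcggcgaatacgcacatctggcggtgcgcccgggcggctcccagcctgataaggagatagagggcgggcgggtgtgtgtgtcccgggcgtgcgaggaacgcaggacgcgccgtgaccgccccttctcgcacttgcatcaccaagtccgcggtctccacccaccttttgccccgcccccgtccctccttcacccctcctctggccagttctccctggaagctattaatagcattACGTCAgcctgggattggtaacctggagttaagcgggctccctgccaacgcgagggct
Nr4a1: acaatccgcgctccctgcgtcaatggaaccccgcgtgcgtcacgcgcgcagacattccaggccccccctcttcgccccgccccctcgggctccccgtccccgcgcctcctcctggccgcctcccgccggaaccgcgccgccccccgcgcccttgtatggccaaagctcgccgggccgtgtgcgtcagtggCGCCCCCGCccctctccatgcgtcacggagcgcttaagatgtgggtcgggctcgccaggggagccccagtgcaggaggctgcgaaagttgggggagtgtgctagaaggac

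Of the 10 members, 8 had a promoter entry. Egr1 and Ier2 had none. The motif TGACGT was found in 4 of the 8 (Atf3, Dusp1, Egr2 and Fos), and in 7.51% of 32851 mouse promoters of the same length. The shares are per entry, and a member counted if any of its entries held the motif: Egr2 had 5 entries, of which 3 held TGACGT, 4 held a CArG box and the most upstream one held neither, and the other members had 1 entry each. In Fos TGACGT began at position -66 from the start site, and in Atf3 at position -8. The EGR motif GCGNGGGCG was found in 2 of the 8 (Fosb, at position -50, and Nr4a1, at position -60), and in 5.55% of all promoters. A CArG box, the site known for serum response factor, was found in 1 of the 8 (Egr2), against 1.63% of all promoters, the AP-1 motif TGANTCA in 0 of the 8, against 7.81%, and TATAAA in 2 of the 8 (Fos and Junb), against 13.6%. Both strands were searched, and the motifs could overlap. These are matches of letters in a short window.

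Library depth, read back from the deposited values, ranged over 9.26 to 18.3 megareads for the spermatocyte libraries. It ranged over 12.8 to 16.9 megareads for P18 testis and over 17.96 to 21.1 megareads for P14 testis. The targeted gene was lower in KO than in Het in each set: Zfp541 was at 12.4 to 14.2 in spermatocytes KO and 29.7 to 58.6 in spermatocytes Het, at 8.32 to 10.2 in P18 testis KO and 19.6 to 27.9 in P18 testis Het, and at 3.43 to 5.39 in P14 testis KO and 8.04 to 9.87 in P14 testis Het. All levels are RPKM (reads scaled by gene length and library size; P14 testis and spermatocytes) or FPKM (fragments in place of reads; P18 testis), which the authors normalized library by library and which were then rescaled to a common scale over the 18 libraries. The label of the spermatocytes was checked against defining markers: 14 of 14 Sertoli markers were lower in spermatocytes than in testis in KO and in Het, with medians of -4.26 and -3.63 on the log2 scale, while 6 of 9 spermatocyte markers rose and 1 fell in KO, and 7 of 9 rose in Het. Spermatogonial markers were higher too, 7 of 8 in KO and 7 of 8 in Het. By the same call, described below, 28.3% of all genes were higher and 32.7% lower in KO, and 24.3% and 32.5% in Het. Not every somatic type fell: none of the 5 peritubular myoid markers was called in KO or in Het.

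In P18 spermatocytes, all 10 immediate-early genes were higher than in P18 testis, in KO and in Het. Fosb, the least abundant member in P18 testis, and Fos rose most, and Ier2, the most abundant member in P18 testis, rose least. The call was an adjusted p below 0.05 in limma on log2(value + 0.5), adjusted by Benjamini-Hochberg over 19668 genes. It was made as higher for 10 of 10 members in KO, where 28.3% of all genes tested were called higher, and for 10 of 10 in Het, where 24.3% were. Libraries of the 2 fractions did not overlap for 10 of 10 members in KO, against 33.7% of all genes, and for 10 of 10 in Het, against 23.5%. Fosb, Egr2 and Atf3 were below 1 in every P18 testis library. They passed the filter of 1 in at least 3 libraries only through spermatocytes, where they are high, so their part in these counts is not independent of the filter. The other members reached 1 in every P18 testis library. The median log2 difference of the members was 2.71 in KO and 2.47 in Het, beside medians over all genes of -0.08 and -0.07. Fraction, isolation procedure, cell makeup and table set (RPKM for spermatocytes, FPKM for P18 testis) changed together in this design and cannot be told apart. The ribosomal RNA gene n-R5-8s1 averaged 740 and 570 in spermatocytes KO and Het, and 292 and 255 in P14 testis KO and Het. It averaged 0 in P18 testis KO and in P18 testis Het, and the cause was not tested. In bulk RNA, fewer cells of a type and less RNA per cell cannot be told apart either.

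Fosb (chr7:19302696-19310051, minus strand), a partner of Jun proteins in AP-1, was at 19.2, 32.4 and 60.4 in spermatocytes KO, against 0.315, 0.284 and 0.198 in testis KO. In Het it was at 15.7, 31.7 and 37.4 in spermatocytes and at 0.491, 0.505 and 0.271 in testis. Gene positions are from GENCODE M21 on GRCm38. Every spermatocyte library lay far above every testis library, and the lowest in KO was 61.1 times the highest testis library. The log2 difference was 5.48 ± 0.39 in KO (SE, adjusted p = 6.08e-07, limma) and 4.88 ± 0.39 in Het (adjusted p = 1.91e-06, limma), the 6th and 5th largest of 19668 genes. On the log2(value + 0.5) scale the change of a gene this low in testis is understated, and the ratio of group means was 141 in KO and 66.9 in Het. The testis values rest on 18 to 50 reads per library, and the spermatocyte values on 1384 to 5122.

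Fos (chr12:85473890-85477273, plus strand), the founding member of its family, was at 38.2, 64.2 and 95.5 in spermatocytes KO, against 2.62, 1.68 and 1.46 in testis KO. The Het libraries were at 31.8, 59.5 and 64.5 in spermatocytes and at 2.09, 1.58 and 1.54 in testis. The fractions did not overlap, and the first replicate was the lowest spermatocyte library of each genotype. It rose by 4.71 ± 0.34 in KO on the log2 scale (adjusted p = 7.25e-07, limma) and by 4.50 ± 0.34 in Het (adjusted p = 1.36e-06, limma), the 7th and 6th largest of all genes tested. The ratio of means was 34.4 in KO and 29.9 in Het.

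Jun (chr4:95049034-95052222, minus strand), the partner that Fos proteins need to bind DNA, was at 18.8, 26.3 and 33.6 in spermatocytes KO, against 7.64, 8.34 and 8.06 in testis KO. Among Het mice it was at 16.5, 29.6 and 23.7 in spermatocytes and at 7.45, 7.45 and 7.83 in testis. The fractions were apart, but by less than for Fos, and Jun was among the more abundant members in testis. It rose by 1.61 ± 0.22 in KO (adjusted p = 7.14e-05, limma) and by 1.52 ± 0.22 in Het (adjusted p = 0.000148, limma) on the log2 scale.

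Junb (chr8:84974484-84978718, minus strand), a Jun relative that also pairs with Fos proteins, was at 21.4, 48.4 and 73.3 in spermatocytes KO, against 6.70, 5.62 and 7.01 in testis KO. In Het the values were 21.5, 43.4 and 45.4 in spermatocytes and 6.46, 5.51 and 6.65 in testis. The first spermatocyte replicate was again far below the other two in each genotype, yet above all testis libraries. The difference, on the log2 scale, was 2.63 ± 0.39 in KO (adjusted p = 0.000155, limma) and 2.40 ± 0.39 in Het (adjusted p = 0.00039, limma).

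Atf3 (chr1:191170296-191218039, minus strand), a stress-induced member of the ATF family, was at 5.94, 6.27 and 12.9 in spermatocytes KO, against 0.791, 0.653 and 0.668 in testis KO. Het libraries had 4.31, 6.49 and 8.53 in spermatocytes and 0.653, 0.673 and 0.498 in testis. The third replicate stood highest in spermatocytes of each genotype, and no library crossed between fractions. On the log2 scale it rose by 2.80 ± 0.28 in KO (adjusted p = 8.85e-06, limma) and by 2.604 ± 0.28 in Het (adjusted p = 2.11e-05, limma).

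Egr1 (chr18:34859823-34864984, plus strand), a zinc finger factor induced by growth factors, was at 34.9, 44.4 and 73.9 in spermatocytes KO, against 6.30, 6.05 and 4.49 in testis KO. For Het the levels were 26.4, 47.1 and 44.6 in spermatocytes and 4.90, 7.46 and 5.22 in testis. The lowest spermatocyte library was 5.55 times the highest testis library in KO and 3.54 times in Het. Its log2 difference was 3.02 ± 0.29 in KO (adjusted p = 6.33e-06, limma) and 2.63 ± 0.29 in Het (adjusted p = 2.53e-05, limma).

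Egr2 (chr10:67535475-67542188, plus strand), its relative, stayed the least abundant member in spermatocytes, at 3.40, 2.80 and 4.01 in KO, against 0.405, 0.721 and 0.464 in testis KO. In Het it was at 2.52, 3.35 and 2.78 in spermatocytes and at 0.414, 0.390 and 0.582 in testis. Its spermatocyte libraries lay closer together than those of any other member. On the log2 scale the rise was 1.92 ± 0.17 in KO (adjusted p = 3.17e-06, limma) and 1.81 ± 0.17 in Het (adjusted p = 6.88e-06, limma).

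Nr4a1 (chr15:101254269-101274795, plus strand), the nuclear receptor, was at 15.9, 34.2 and 52.7 in spermatocytes KO, against 3.62, 2.66 and 5.49 in testis KO. Het values were 14.03, 39.2 and 34.1 in spermatocytes and 7.52, 3.16 and 2.98 in testis. Among the members it varied widely in both fractions, and the first testis replicate in Het came within 1.87 times of the lowest spermatocyte library. It differed on the log2 scale by 2.87 ± 0.51 in KO (adjusted p = 0.000554, limma) and by 2.54 ± 0.51 in Het (adjusted p = 0.00156, limma).

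Dusp1 (chr17:26505590-26562128, minus strand), a phosphatase that inactivates MAP kinases, was at 8.95, 11.1 and 13.7 in spermatocytes KO, against 2.35, 2.08 and 2.15 in testis KO. In Het it was at 5.22, 9.07 and 7.97 in spermatocytes and at 2.37, 1.68 and 2.25 in testis. The testis libraries of the genotypes overlapped, and each lay below all spermatocyte libraries. The log2 difference was 2.10 ± 0.20 in KO (adjusted p = 5.88e-06, limma) and 1.58 ± 0.20 in Het (adjusted p = 6.78e-05, limma).

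Ier2 (chr8:84661331-84662852, minus strand), an early-response gene whose nuclear protein is less well understood, was at 15.6, 18.4 and 25.6 in spermatocytes KO, against 13.9, 12.8 and 12.3 in testis KO. The Het libraries were at 13.1, 21.4 and 19.4 in spermatocytes and at 9.26, 13.03 and 13.05 in testis. The fractions barely separated: the lowest spermatocyte library was 1.12 times the highest testis library in KO, and in Het the ratio was 1.00081. Its log2 rise was 0.57 ± 0.22 in KO (adjusted p = 0.0405, limma) and 0.57 ± 0.22 in Het (adjusted p = 0.041, limma). The call was lost on the values as deposited (adjusted p = 0.154 in KO and 0.125 in Het, limma) and without a filter on low values (0.0733 and 0.0754). With scaling within the libraries of the comparison, an alternative chosen after seeing the data, it was lost in KO (0.40, adjusted p = 0.171, limma). In KO it was also lost without KO spermatocyte replicate 2 or 3 or without any 1 of the KO testis replicates, with adjusted p up to 0.161 (limma, without spermatocyte replicate 3). In Het it was lost without Het spermatocyte replicate 2 or 3, without Het testis replicate 1 or 2, or without KO spermatocyte replicate 2 or any KO testis replicate, with adjusted p up to 0.138 (limma, without Het testis replicate 1).

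**Figure D1:**
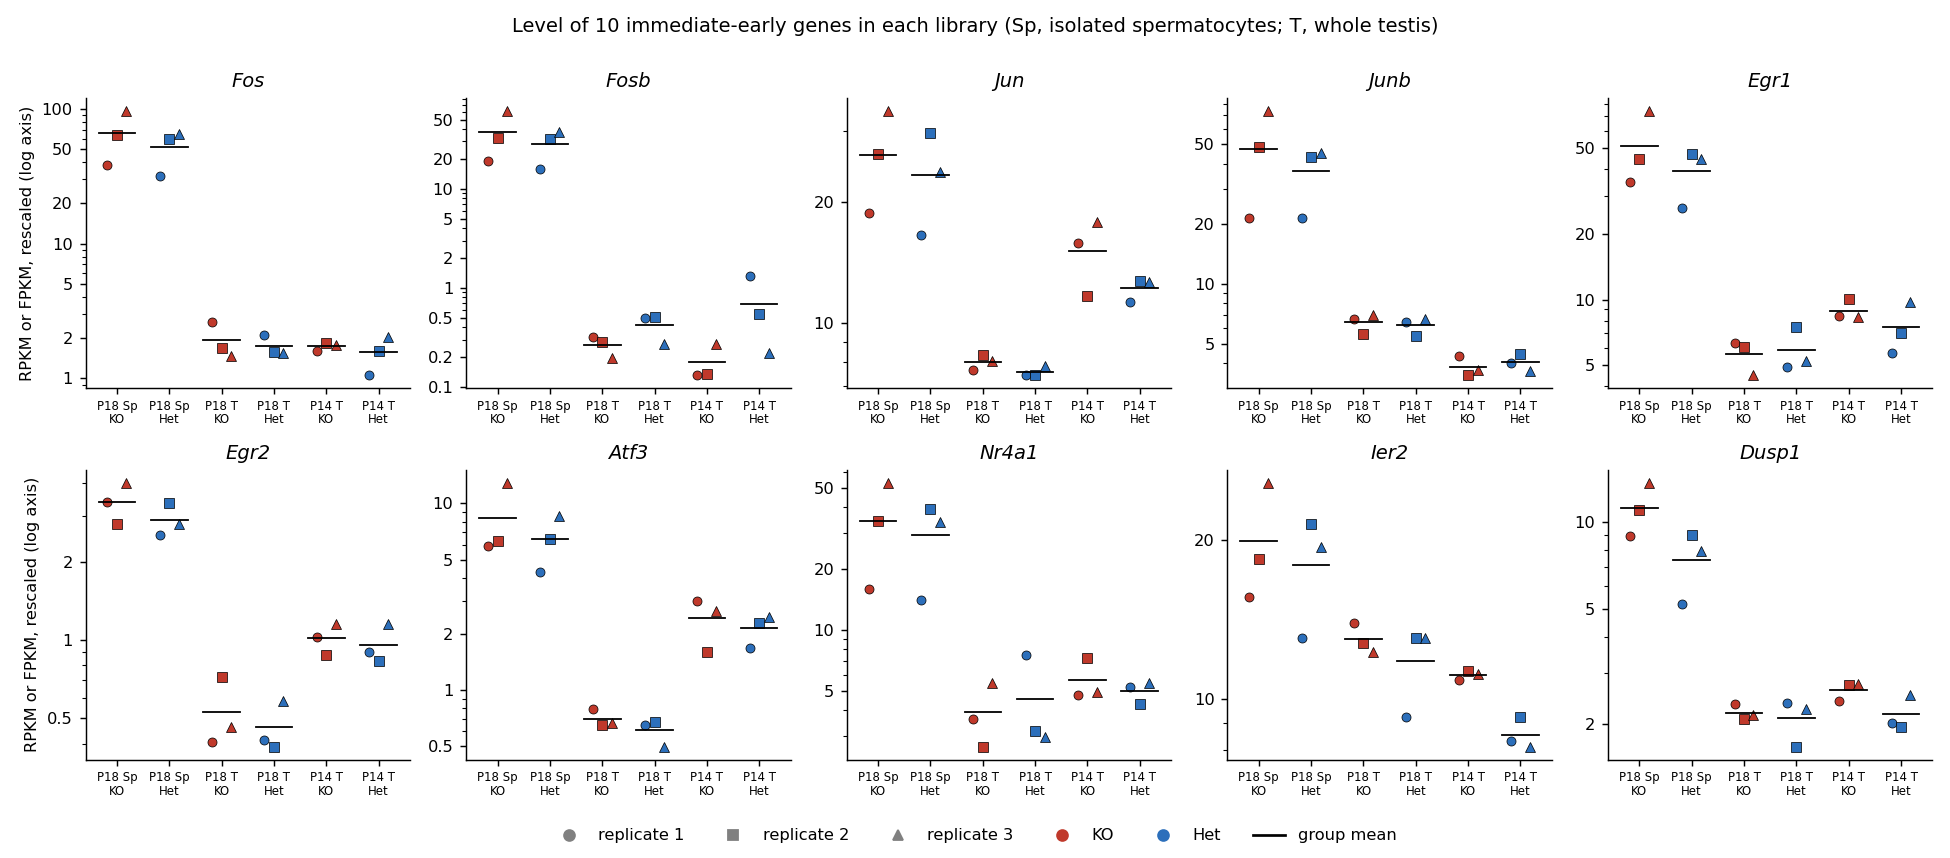
Level of each member in every library (RPKM or FPKM after rescaling, log axis), with spermatocytes (Sp) left of testis (T) and KO left of Het; symbols mark the replicate and bars the group mean. In each panel the 6 spermatocyte libraries lie above the P18 testis libraries of their own genotype; Junb, Nr4a1, Ier2 and Dusp1 were given another gene length at P14, so their P14 levels are not on the same scale.

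The order of the levels changed between fractions. In P18 testis KO and Het, Ier2 was highest (means of 12.985 and 11.8), followed by Jun (8.01 and 7.58), with Junb and Egr1 overlapping after it, and Fosb was lowest (0.265 and 0.422), overlapping with Egr2 in Het. In spermatocytes Fos was highest (66.0 in KO and 52.0 in Het), followed by Egr1 (51.1 and 39.4) and Junb (47.7 and 36.8). From Fos down to Ier2, each spermatocyte group's libraries overlapped with those of the next member in the order, so that part of the order is not resolved by the spread. Dusp1, Atf3 and Egr2 came last in KO and in Het, and Egr2 did not overlap with Atf3.

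**Figure D2:**
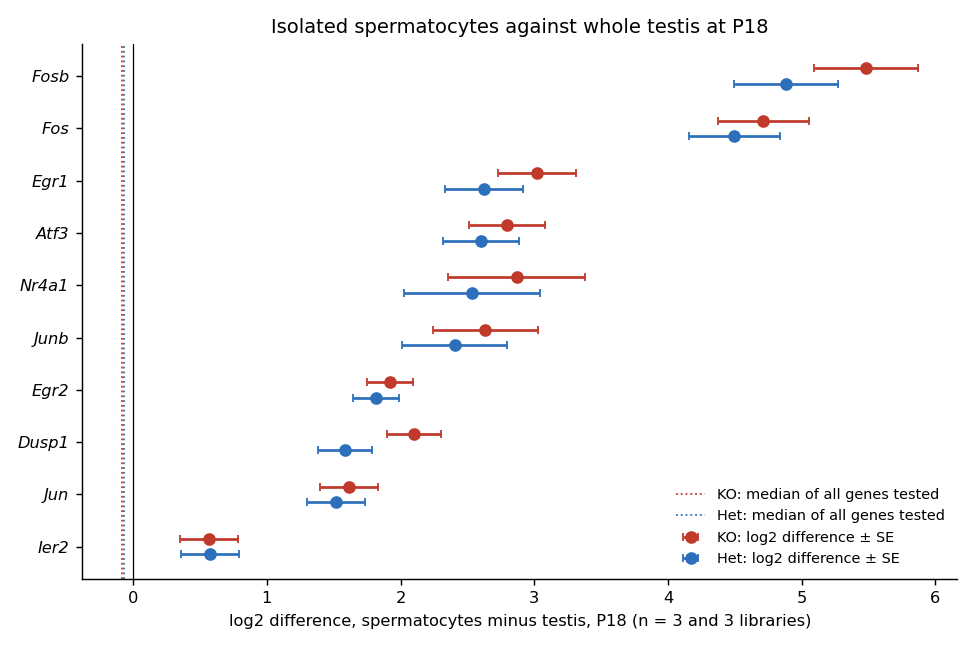
Log2 difference, spermatocytes minus testis at P18, of each member in KO (above) and Het (below), with the SE of the fit over 12 libraries; dotted lines are the medians over all genes tested. Fosb and Fos lie at 4.50 or more, Ier2 at 0.57, and the error bars of the genotypes overlap for each member except Dusp1.

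Whether the difference between fractions itself differed between genotypes was tested by an interaction. It was called for 0 of 10 members, against 0.0763% of all genes tested, with limma and with voom, and 0 of 10 had an unadjusted p below 0.05, against 18% of all genes. The values ran from -0.01 for Ier2 to 0.60 ± 0.55 for Fosb, where a positive value means a larger difference in KO, and Dusp1 had the lowest adjusted p (0.52 ± 0.29, adjusted p = 0.368, limma). The median over the members was 0.22 on the log2 scale, beside 0.08 over all genes.

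Within each set, no member was called between KO and Het. In P18 spermatocytes 0 of 10 members were called with limma or with voom, although 36.7% of all genes tested were, and 0 of 10 did not overlap in the higher direction, against 30.5% of all genes, or in the lower direction, against 23.8%. Of the 10, 1 had an unadjusted p below 0.05, against 47.7% of all genes. This was Dusp1, with a difference of 0.58 ± 0.23 (adjusted p = 0.0903, limma), and its libraries overlapped, since Het replicate 2 (9.07) passed KO replicate 1 (8.95). The difference of the same size passed in a fit over all 18 libraries (adjusted p = 0.0167, limma). The other members ran from 0.14 for Ier2 to 0.34 for Egr1, with errors of 0.18 to 0.52, and the member median was 0.29, beside 0.09 over all genes.

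In P18 testis 7 members passed the filter of 1 in at least 3 libraries, and Fosb, Egr2 and Atf3 did not. Of the 7, 0 were called with limma or with voom and 0 had an unadjusted p below 0.05, while 23.2% of all genes were called and 39.7% had such an unadjusted p. None of the 7 was higher without overlap, against 20.8%, or lower without overlap, against 27.3%, and differences ran from -0.13 for Nr4a1 to 0.15 for Ier2. In P14 testis 9 members were tested, Fosb being below the filter, and 0 were called with limma or with voom, against 0.2% of all genes. Ier2 was at 10.9, 11.3 and 11.1 in P14 testis KO, against 8.32, 9.24 and 8.13 in P14 testis Het. It was the only member whose P14 libraries did not overlap, where 8.78% of all genes were higher without overlap and 7.62% lower. It was also the 1 member of 9 with an unadjusted p below 0.05, against 9.25% of all genes, and its difference was 0.36 ± 0.06 (unadjusted p = 0.000826, adjusted p = 0.105, limma). Fosb in P14 testis was at 0.132, 0.135 and 0.272 in KO, against 1.30, 0.548 and 0.221 in Het, and the first Het replicate, with 146 reads, was the highest of the 6. The same library was the lowest of its group for Fos (1.06, beside 1.59 and 2.04).

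**Figure D3:**
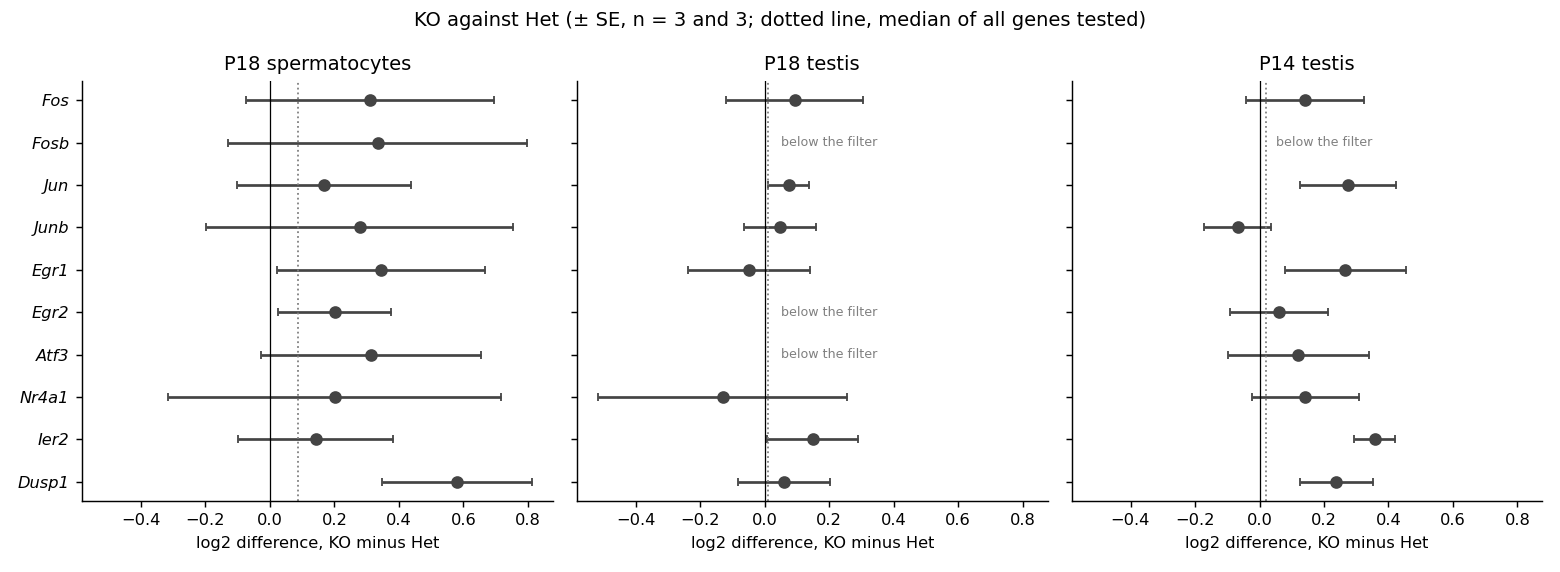
Log2 difference, KO minus Het, of each member in P18 spermatocytes, P18 testis and P14 testis, with the SE of each fit of 6 libraries; dotted lines are the medians over all genes tested and members below the filter have no point. All 10 points in spermatocytes lie right of 0, from 0.14 to 0.58, and 0 of them passed the threshold.

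Between ages, P18 was set against P14 testis for the 5 members whose gene length was the same at the 2 ages and that passed the filter. In KO 4 of the 5 fell, where 26.7% of all genes tested were called lower, and in Het 3 of the 5 fell, where 32.3% were. Atf3 and Egr2 were below 1 in every P18 testis library. They passed the filter only through P14 libraries, where they are high, so their part in these counts is not independent of the filter. Egr2 stayed above the filter in 9 of the 12 fits that left out 1 library. Atf3 was at 0.791, 0.653 and 0.668 in P18 testis KO and at 3.01, 1.59 and 2.66 in P14 testis KO, with no overlap, and fell by 1.25 ± 0.19 in KO (adjusted p = 0.00037, limma) and by 1.25 ± 0.19 in Het (adjusted p = 0.000227, limma). In Het the Atf3 levels were 0.653, 0.673 and 0.498 at P18 and 1.68, 2.30 and 2.46 at P14, also apart. Jun was at 7.64, 8.34 and 8.06 in P18 testis KO and at 15.8, 11.7 and 17.8 in P14 testis KO, with all P18 libraries below all P14 libraries. It fell by 0.86 ± 0.12 in KO (adjusted p = 0.000188, limma) and by 0.66 ± 0.12 in Het (adjusted p = 0.000794, limma). Egr2 fell by 0.57 ± 0.18 in KO (adjusted p = 0.0225, limma) and by 0.60 ± 0.18 in Het (adjusted p = 0.0121, limma). Egr1 was at 6.30, 6.05 and 4.49 in P18 testis KO and at 8.38, 10.1 and 8.27 in P14 testis KO, again apart, whereas in Het the P18 values (4.90, 7.46 and 5.22) overlapped with those at P14 (5.64, 7.04 and 9.71). It fell by 0.63 ± 0.20 in KO (adjusted p = 0.0283, limma), and its Het difference of -0.31 ± 0.20 did not pass (adjusted p = 0.204, limma). The KO call of Egr1 was lost on the values as deposited (-0.35, adjusted p = 0.169, limma), without a filter (0.0536) and in a fit over all 18 libraries (0.0924). Without P18 KO replicate 3 only 2 members were called lower in KO, the call being lost for Egr1 (adjusted p = 0.102, limma) and for Egr2 (0.0643), and Egr1 lost it also without P14 KO replicate 1 or 2 (0.0526 and 0.0953), and Egr2 without P18 KO replicate 1 (0.0742). Fos did not pass at either genotype (0.09 ± 0.21 in KO and 0.14 ± 0.21 in Het). On the values as deposited, 2 members were called lower in KO. The 2 ages were separate sets of tables, and age and set cannot be told apart.

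Markers of several cell types changed between the ages as well. Spermatogonial markers fell for 5 of 8 in KO and 6 of 8 in Het, Sertoli markers for 6 of 12 and 7 of 12, and interstitial fibroblast markers for 2 of 5 and 5 of 5. Of all genes tested, 26.7% were called lower in KO and 32.3% in Het. Spermatocyte markers rose for 5 of 8 in KO and 6 of 8 in Het, where 19.2% and 30.5% of all genes were called higher. Summed spermatogonial markers were 216 to 243 in P18 testis KO and 265 to 279 in P14 testis KO, and 167 to 204 in P18 testis Het and 223 to 273 in P14 testis Het. Their part in the result was not tested.

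The median spread of the members between libraries of a group was larger in spermatocytes than in testis with all libraries kept, and in Het this rested on replicate 1. The median SD of the members on the log2 scale was 0.568 in spermatocytes KO and 0.455 in spermatocytes Het, beside medians over all genes of 0.123 and 0.219, and it was 0.136 to 0.203 in the 4 testis groups, beside 0.0872 to 0.134. With 3 libraries in a group these spreads were not tested against each other. On the log2(value + 0.5) scale the spread of Fosb, Egr2 and Atf3, below 1 in P18 testis, is understated there. As ratios, the highest library of Egr2 was 1.78 times its lowest in P18 testis KO and 1.43 times in spermatocytes KO. In Het the ratios of Egr2 were 1.49 and 1.33. Fosb and Atf3 had larger ratios in spermatocytes than in P18 testis in KO and in Het. In spermatocytes KO, Junb (0.892), Nr4a1 (0.858) and Fosb (0.815) varied most and Egr2 (0.226) least. In spermatocytes Het, Nr4a1 (0.787) and Fosb (0.650) varied most and Egr2 (0.178) least. Leaving out 1 library moved the median to 0.288 in KO (without replicate 3) and to 0.134 in Het (without replicate 1). The value of 0.134 lies below the 0.136 to 0.203 of the testis groups.

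**Figure D4:**
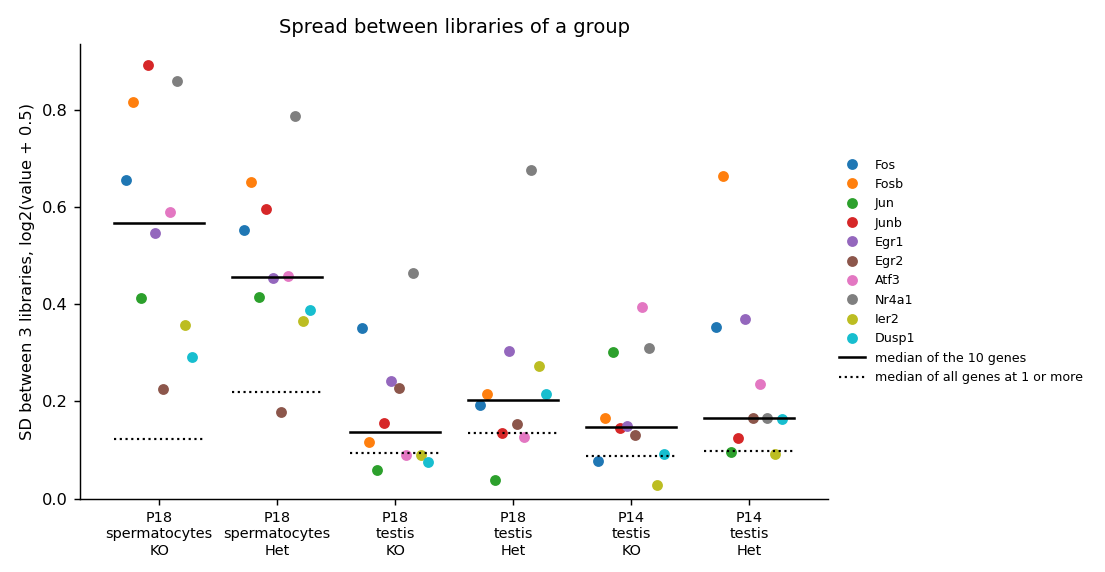
SD between the 3 libraries of each group, on the log2(value + 0.5) scale, for each member (points), with the median of the 10 members (solid bar) and of all genes with a level of 1 or more in the group (dotted bar). The solid bars of the spermatocyte groups stand at 0.568 and 0.455, above the 0.136 to 0.203 of the testis groups.

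The spread in spermatocytes was shared by the members. In spermatocytes KO, replicate 3 was highest for 10 of 10 members and replicate 1 lowest for 9 of 10, the exception being Egr2. In spermatocytes Het, replicate 1 was lowest for 10 of 10, and replicate 2 was highest for 6 and replicate 3 for 4. The share of all genes with each replicate highest or lowest was not computed. Whether these orders were particular to the members was therefore not tested. Subtracting each library's mean over the members brought the median SD to 0.242 in KO and 0.149 in Het. The same step gave 0.131 and 0.188 in P18 testis KO and Het, and 0.134 and 0.161 in P14 testis KO and Het. The mean comes from the same 10 members, so part of a fall is built in. In the testis groups the order of the replicates differed from member to member: in P18 testis KO, replicate 1 was highest for 6 members, replicate 2 for 2 and replicate 3 for 2.

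Peritubular myoid markers, genes of the smooth muscle cells around the tubules, moved with the members between spermatocyte libraries. The summed level of the 5 markers (Acta2, Myh11, Tagln, Cnn1 and Des) was 58.5, 120 and 212 in spermatocytes KO, and 64.1, 166 and 147 in spermatocytes Het, in replicate order. The summed level of the 10 members was 182, 288 and 446 in spermatocytes KO and 151, 291 and 288 in spermatocytes Het, the same order within each genotype. This order was not particular to myoid markers. Interstitial fibroblast sums followed it too, at 24.1, 48.9 and 83.0 in spermatocytes KO and 36.5, 59.6 and 56.2 in spermatocytes Het. Macrophage sums followed it in KO only, and Leydig, endothelial and erythroid sums in neither genotype. In Het the order of replicates 2 and 3 rests on near-equal sums of the members (291 and 288), and 4 members were highest in replicate 3. Het macrophage sums (21.4, 22.9 and 28.4) and endothelial sums (1.48, 1.73 and 1.85) also had replicate 1 lowest, while Het Leydig and erythroid sums did not. Between fractions, 0 of the 5 myoid markers were called in KO or Het (medians of -0.02 and 0.00 on the log2 scale), and none was at 0 in any group. Their sums were 106 to 140 in P18 testis KO and 101 to 126 in P18 testis Het. The members' summed level was 2.10 to 3.12 times that of the myoid markers in spermatocytes KO and 1.75 to 2.36 times in spermatocytes Het, against 0.301 to 0.420 times in P18 testis KO and 0.328 to 0.413 times in P18 testis Het. The part of these cells in the result was not tested.

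The other somatic markers fell between fractions. Sertoli sums were 53.5 to 103 in spermatocytes KO and 67.6 to 107 in spermatocytes Het, against 1858 to 1884 in P18 testis KO and 1406 to 1703 in P18 testis Het, and within spermatocytes they followed the order of the members in KO (53.5, 72.7 and 103) and not in Het (107, 99.7 and 67.6). Leydig markers fell for 6 of 6 in KO and in Het, macrophage markers for 8 of 10 in KO and 7 of 10 in Het, erythroid markers for 5 of 5 in each, endothelial markers for 3 of 3 tested in each, and interstitial fibroblast markers for 6 of 6 in KO and 4 of 6 in Het. In spermatocytes KO, 2 of the 5 erythroid markers (Hba-a1 and Hbb-bt) were at 0 in every library, and in spermatocytes Het 3 of the 5 were (Hba-a1, Hbb-bs and Hbb-bt). The share of summed values in mitochondrial genes was 6.04%, 6.83% and 7.83% in replicates 1, 2 and 3 of spermatocytes KO, the order of the members, and 4.22%, 3.64% and 4.13% in spermatocytes Het, another order. Its part in the result was not tested.

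**Figure D5:**
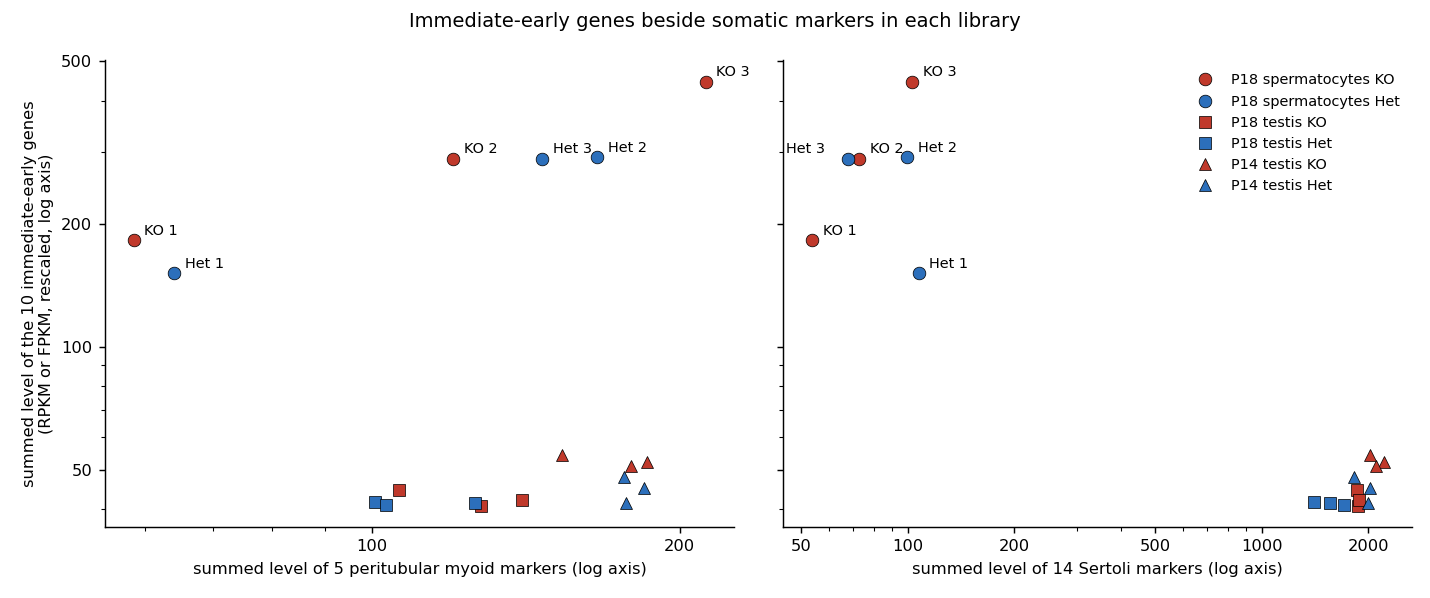
Summed level of the 10 members against the summed level of 5 peritubular myoid markers (left) and 14 Sertoli markers (right) in each library (RPKM or FPKM after rescaling, log axes), with spermatocyte libraries named by genotype and replicate. Spermatocyte libraries lie at 151 to 446 on the vertical axis and testis libraries at 40.8 to 54.5; on the left, within each genotype, the spermatocyte libraries with more myoid marker signal are also higher in the members, while KO replicate 1 is below Het replicate 1 in the markers (58.5 and 64.1) and above it in the members (182 and 151).

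Genes with the pattern most like that of the members were named by their correlation with the members' mean log2 level. Over the 12 P18 libraries, which fall into 2 clusters by fraction, the 5 most alike were Btg2 (r = 0.992), Klf4 (0.989), Zfp36 (0.983), Ier5 (0.981) and Gse1 (0.979), of 10198 genes with a mean of at least 5. The first 4 belong to the list of other early-response genes described last. Klf4, a zinc finger factor, averaged 30.5 in spermatocytes KO, 20.4 in spermatocytes Het, 6.19 in testis KO and 6.09 in testis Het. By deviations from the group mean over all 18 libraries, which leave out the difference between fractions, the 5 most alike were Mme (0.955), Selenbp1 (0.953), Syn3 (0.950), Tshz2 (0.949) and Timp3 (0.944). These 5 had means of 1.83 to 6.08 in spermatocytes KO and 1.73 to 5.54 in spermatocytes Het, against 6.65 to 17.9 in P18 testis KO and 5.603 to 15.3 in P18 testis Het. The correlations of deviations rest mainly on the spermatocyte libraries. There the members' mean log2 level ran from 3.94 to 5.02 in KO and from 3.63 to 4.46 in Het. The widest range within a testis group was 1.62 to 1.75 (P18 testis Het). The libraries share their groups and scaling, and these are descriptions.

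Other genes of the response moved in both directions between fractions. Their counts stand beside 28.3% of all genes called higher and 32.7% called lower in KO, and 24.3% and 32.5% in Het. Of the 9 paralogues of the members that were tested, 7 rose and 1 fell in KO, and 6 rose and 2 fell in Het, with list medians of 1.32 and 0.97 on the log2 scale. Nr4a2 and Nr4a3, the relatives of Nr4a1, rose by 1.93 ± 0.55 (adjusted p = 0.0103, limma) and 1.91 ± 0.35 (adjusted p = 0.000683, limma) in KO and by 1.73 ± 0.55 (adjusted p = 0.0197, limma) and 1.70 ± 0.35 (adjusted p = 0.00183, limma) in Het. Jdp2, a leucine zipper protein that represses AP-1, fell by 1.03 in KO and by 0.95 in Het. Of 39 other early-response genes tested, 19 rose and 6 fell in KO, and 15 rose and 7 fell in Het (medians of 0.46 and 0.25).

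Among these, Gadd45b, a stress sensor, averaged 66.9 in spermatocytes KO and 11.5 in testis KO, and 47.4 in spermatocytes Het and 9.94 in testis Het. Socs3, an inhibitor of cytokine signalling, rose by 2.32 ± 0.20 in KO and by 2.51 ± 0.20 in Het. Rgs2, a regulator of G protein signalling, fell by 2.35 ± 0.12 in KO and by 2.41 ± 0.12 in Het, and Nfkbia, the inhibitor of NF-kB, fell by 1.901 ± 0.19 in KO and by 1.92 ± 0.19 in Het. Of 12 feedback inhibitors tested, 5 rose and 4 fell in KO and 4 rose and 3 fell in Het, the falls being near or under the share of all genes called lower. The phosphatase Dusp2 rose by 1.91 ± 0.14 in KO and by 1.54 ± 0.14 in Het, while the EGR corepressors Nab1 and Nab2 fell by 2.23 and 1.34 in KO and by 2.11 and 1.30 in Het.

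Of 16 upstream kinases and factors tested, 8 rose and 4 fell in KO, and 7 rose and 4 fell in Het, the falls again being under that share. Mapk14, the p38 kinase, rose by 0.99 ± 0.07 in KO and by 0.60 ± 0.07 in Het, and Mapk3, the ERK1 kinase, fell by 1.67 ± 0.11 in KO and by 1.23 ± 0.11 in Het. Of 12 heat shock genes tested, 3 rose and 3 fell in KO and 3 rose and 5 fell in Het, with medians of 0.13 and -0.27, and the rises were near the share of all genes called higher. The small heat shock gene Hspb1 fell by 3.32 ± 0.22 in KO and by 3.06 ± 0.22 in Het. Hspa1a and Hspa1b, whose near-identical copies share reads, averaged 2.25 and 4.98 in spermatocytes KO and 2.85 and 4.27 in testis KO, and neither was called.

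Between KO and Het spermatocytes, 18.2% of all genes were called higher and 18.6% lower, and genes of these other lists were among them. Of 7 paralogues tested, 1 rose (Jund, the Jun family member expressed at steady levels), at means of 151 in KO and 94.8 in Het, a log2 difference of 0.67 ± 0.14 (adjusted p = 0.0106, limma). Of 39 other early-response genes, 7 rose and 0 fell, so that the rises in these first 2 lists were near the share of all genes, and Zfp36l2, an RNA-binding protein, rose by 0.75 ± 0.12 (adjusted p = 0.00414, limma). Of 11 feedback inhibitors, 5 rose and 0 fell, and Dusp2 averaged 7.53 in KO and 3.58 in Het, a log2 difference of 0.97 ± 0.13 (adjusted p = 0.00224, limma). Of 15 upstream factors, 7 rose and 1 fell, with Mapk14 at 42.8 in KO and 25.6 in Het, and the fallen gene was Crem, a CREB relative that is known to work in male germ cells, at 4.66 in KO and 11.5 in Het. Of 12 heat shock genes, 6 rose and 1 fell, and the mitochondrial chaperones Hspd1 and Hspe1 rose by 0.65 ± 0.11 and 0.65 ± 0.13, while Dnajb1 fell by 0.91 ± 0.24 (adjusted p = 0.0264, limma). In P18 testis, where 5.4% of all genes were called higher and 17.8% lower, 1 of 37 other early-response genes rose and 2 fell, 2 of 16 upstream factors rose and 2 fell, 1 of 12 heat shock genes rose and 2 fell, 1 of 11 feedback inhibitors rose, and 0 of 6 paralogues were called with limma. In P14 testis 0 genes of these 5 lists were called with limma.

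Germ cell markers also differed between genotypes in spermatocytes. Spermatogonial markers were higher in KO for 6 of 8 (median 0.70 on the log2 scale), with sums of 461 to 525 in KO and 250 to 312 in Het. Spermatocyte markers fell for 4 of 9 (median -0.33), with sums of 1185 to 1366 in KO and 1843 to 3290 in Het, and spermatid markers fell for 2 of 3 tested. None of the 5 myoid markers was called. Their part in the values of the other lists and of the members was not tested.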

How the data were processed

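Poly(A) RNA-seq tables of 18 libraries were analysed, 3 in each of 6 groups taken from the labels. The authors deposited 1 table per library with gene symbols and RPKM (P14 testis and spermatocytes) or FPKM (P18 testis), per the file headers. The build GRCm38 is named in the submitters' processing notes, which also list the tools edgeR 3.28.1, STAR 2.6.1a, CASAVA 1.9 and featureCounts, with no role given.

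Counts were not used here. The low values multiplied by merged exon length (GENCODE M21, GRCm38) fell on whole multiples of 1 step in each library, within 0.02 reads, which gave the depth (93.7% to 99.2% of the low values of a library came out whole). Reads read back in this way set the scaling (trimmed means of M values, 30% and 5% trims, over 42455 genes and all 18 libraries) and 1 alternative (voom). Symbols shared by several genes were left out. Junb, Nr4a1, Ier2 and Dusp1 gave whole reads with other lengths at P14 than at P18, so they were not compared across ages.

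A gene was tested if 3 or more libraries of the fit reached a rescaled value of 1, using limma 3.58.1 (R 4.3.3) on log2(value + 0.5) with trend and robust moderation, two-sided, Benjamini-Hochberg over all genes, threshold 0.05. The fits held 6 libraries (KO against Het) or 12 (fractions with their interaction, and ages), for 8 comparisons. Errors are SE of the fit or SD over n = 3. Few reads limit the precision of low genes, and no counting intervals were computed. The software was matplotlib 3.10.9, pandas 2.3.3, numpy 2.4.6 and Python 3.11.15, and the test was tried on simulated data. Alternatives were other scalings, pseudocounts, filters, voom, one fit, the replicate block and leaving out each library. Named were all members, up to 2 risen and 2 fallen genes of each other list past the threshold, the largest first, the 5 genes most alike by each of 2 measures, and the promoters of up to 4 members. Members and lists were chosen with earlier results of these data known.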

Additional observations from a re-analysis of the deposited data

How the results depend on the processing

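The 10 of 10 and 10 of 10 calls between fractions stayed at 9 or 10 under every alternative run, the exceptions being Ier2 and, at a filter of 5, Egr2, which was then not tested. Other scalings gave the following. Between KO and Het in P18 testis, 2 of all 10 members did not overlap in the higher direction with median-of-ratios scaling and on the values as deposited. As reported the count was 0. These counts include Fosb, Egr2 and Atf3, which were not tested there, and no share of all genes without overlap was computed under these scalings. Egr1 reversed to 0.049 and 0.062 with them. The interaction reversed for Jun with median-of-ratios scaling (-0.011) and with scaling within the comparison's libraries, which was chosen after seeing the data (-0.11, and -0.023 for Egr2), and for Ier2 with voom (0.018). Between ages, 2 members in KO were called lower on the values as deposited, and at a filter of 5, 2 were called lower in KO and 1 in Het. No count of members without overlap is given between ages, since gene lengths differed for Junb, Nr4a1, Ier2 and Dusp1. The median of all genes moved by -0.15 in KO and -0.13 in Het between fractions, 0.27 in KO and 0.15 in Het between ages and 0.11 between genotypes in P18 testis on the values as deposited, by 0.11 in Het between fractions and -0.11 in Het between ages with median-of-ratios scaling, and by -0.15 in KO between fractions and -0.18 in the interaction with scaling within the comparison. In P18 testis, calls over all genes between KO and Het were 989 higher and 3253 lower as reported, and 2866 higher and 2774 lower with median-of-ratios scaling. In the interaction, 14 genes were called lower as reported and 311 in 1 fit over 18 libraries. The shares of all genes set beside the members move with these counts. Leaving out 1 library gave 70 to 1327 higher and 953 to 3045 lower in P18 testis, with over 1.5 times fewer in each direction without any library other than Het replicate 3. In spermatocytes it gave 1069 to 2556 higher, against 2898 (over 1.5 times fewer without Het replicate 1 or any KO replicate), and 1504 to 2866 lower, against 2960 (without Het replicate 1 or 3). In P14 testis it gave 0 to 128 lower, against 34, and in the interaction 0 to 77 lower, against 14.

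The replicate block and the fit over 18 libraries each gave 1 member called higher between KO and Het spermatocytes (Dusp1, adjusted p = 0.0255 and 0.0167, limma), against 0. The replicate numbers were not taken to pair libraries: in no comparison were all 3 correlations of same-numbered libraries over 0.1 (0.231, 0.0533 and 0.0859 in spermatocytes, where each library correlated best with its own number, as a hint from the data).

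Leaving out 1 library gave these ranges of log2 differences that passed 0. The interaction ran from -0.15 to 0.41 for Atf3, -0.0011 to 0.24 for Egr2, -0.10 to 0.56 for Fos, -0.22 to 0.15 for Ier2, -0.13 to 0.31 for Jun, -0.16 to 0.72 for Junb and -0.12 to 0.79 for Nr4a1. KO against Het in spermatocytes ran from -0.026 to 0.53 for Atf3, -0.0068 to 0.65 for Fos, -0.086 to 0.73 for Fosb, -0.066 to 0.30 for Ier2, -0.053 to 0.38 for Jun, -0.11 to 0.76 for Junb and -0.25 to 0.66 for Nr4a1. In P18 testis it ran from -0.063 to 0.14 for Dusp1, -0.16 to 0.12 for Egr1, -0.10 to 0.23 for Fos, -0.0076 to 0.23 for Ier2, -0.029 to 0.14 for Junb and -0.37 to 0.26 for Nr4a1. In P14 testis it ran from -0.029 to 0.34 for Atf3, -0.0059 to 0.13 for Egr2, -0.046 to 0.31 for Fos and -0.036 to 0.24 for Nr4a1. Fos between ages ran from -0.11 to 0.23 in KO and -0.051 to 0.30 in Het. Members called lower between ages in KO were 2 to 4. Members higher without overlap between KO and Het were 0 to 2 in spermatocytes, 0 to 1 in P18 testis and 1 to 4 in P14 testis, and members lower without overlap 0 to 1 in P18 testis and 0 to 1 in P14 testis. These counts include members below the filter, and no share of all genes was computed beside them, so they are not read as a result about the members. The median SD of the members ran from 0.288 to 0.751 in spermatocytes KO and from 0.134 to 0.584 in spermatocytes Het. The cause of these changes was not tested, and Fosb, Egr2 and Atf3 in testis rest on few reads.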
